A study of Mus musculus with 6 samples.

Results

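The epithelial to mesenchymal transition was followed here through 10 genes, chosen by symbol: the transcription factor genes Snai1, Snai2, Twist1, Twist2, Zeb1 and Zeb2, the intermediate filament gene Vim, the splicing factor genes Esrp1 and Esrp2, and Grhl2. They are 10 of 55471 gene identifiers in the count tables, and all 10 were among the 15091 genes with enough reads to be tested. The cells were mouse epiblast stem cells, pluripotent cells that resemble the epiblast at the onset of gastrulation. The 2 groups of 3 libraries were compared. In the Mixl1 induced group, embryoid bodies (aggregates of differentiating cells) of a Mixl1-inducible line were exposed to 1 µg/mL of the inducer doxycycline over the 24 h that preceded collection. In the Mixl1 KO group, the cells carried a knockout of Mixl1, the homeobox factor gene of the primitive streak. Both groups had been differentiated in serum for 2 days and came from cultures on a feeder layer of irradiated mouse embryonic fibroblasts, in medium that held activin A (20 ng/mL) and bFGF (10 ng/mL). The labels do not say whether the Mixl1 KO cells received doxycycline, how many clones were used, or whether both lines share a parent, so Mixl1, the line and the drug cannot be told apart. Whether the triplicate libraries come from separate cultures is not stated either, and the spread behind each p-value is that among these libraries, possibly a technical one.

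During gastrulation, epiblast cells leave an epithelium through the primitive streak, lose E-cadherin junctions and become mesenchymal. Snail, Zeb and Twist proteins are DNA-binding factors that repress epithelial genes such as Cdh1 and favour this change, while GRHL2 and the ESRP proteins maintain the epithelial state, GRHL2 as an activator of junction genes and the ESRP proteins by directing exon choice in transcripts such as Fgfr2, Cd44 and Ctnnd1. Vimentin is the filament protein most often used to mark mesenchymal cells. The counts are per gene and do not separate isoforms, so the genes of the splicing switch were measured and exon choice itself was not.

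Each library held between 17490426 and 21026423 reads assigned to genes. Mixl1 had 8860, 7720 and 7861 reads in the Mixl1 induced libraries and 817, 668 and 812 in the Mixl1 KO libraries. The labels do not name the deleted part of Mixl1, so reads over the whole gene do not check the knockout. The epiblast marker Pou5f1 was at 807 ± 21.7 CPM in the Mixl1 induced group and 1294 ± 44.5 CPM in the Mixl1 KO group (SD, n = 3 each), and of 9 epiblast markers 5 were higher and 4 lower (CPM, reads on a gene relative to the TMM-scaled library size). In all marker counts, higher and lower mean past an adjusted p of 0.05 (edgeR), as 31% and 31.6% of all tested genes were. Of 11 tested markers of fibroblasts (12 listed), the cells of the feeder layer, 4 were higher and 5 lower, and their summed level was 479 to 666 CPM in Mixl1 induced and 765 to 956 CPM in Mixl1 KO libraries. All 9 tested macrophage markers (10 listed) were lower, with a summed level of 47.0 to 59.1 CPM in Mixl1 induced and 319 to 460 CPM in Mixl1 KO libraries. No marker of these lists had 0 reads in all libraries. In bulk RNA, fewer cells of a type and less RNA per cell cannot be told apart.

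The 10 genes did not move in 1 direction. Zeb2, Snai1 and Twist1 were higher in the Mixl1 induced group, Twist2, Esrp1, Vim and Zeb1 were lower, and Snai2, Esrp2 and Grhl2 did not pass the test (edgeR quasi-likelihood test, adjusted p below 0.05 over all tested genes). Mesenchymal regulators were thus in both directions, and the mesenchymal filament gene Vim and the epithelial splicing factor gene Esrp1 were lower together. The 3 higher and 4 lower genes compare with 31% of all tested genes higher and 31.6% lower, and with 62.6% past the threshold in either direction. The median of the absolute log2 fold change was 0.33 over the 10 genes and 0.32 over all tested genes. The groups did not overlap for 6 of the 10 genes, against 67.1% of all tested genes. A change of at least 2-fold past the threshold was estimated for 2 of the 10, Twist2 and Esrp1, and for 16.1% of all tested genes. Of the 3 higher genes, Zeb2 alone passed without induced replicate 2, without induced replicate 3 or without KO replicate 1.

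**Figure D1:**
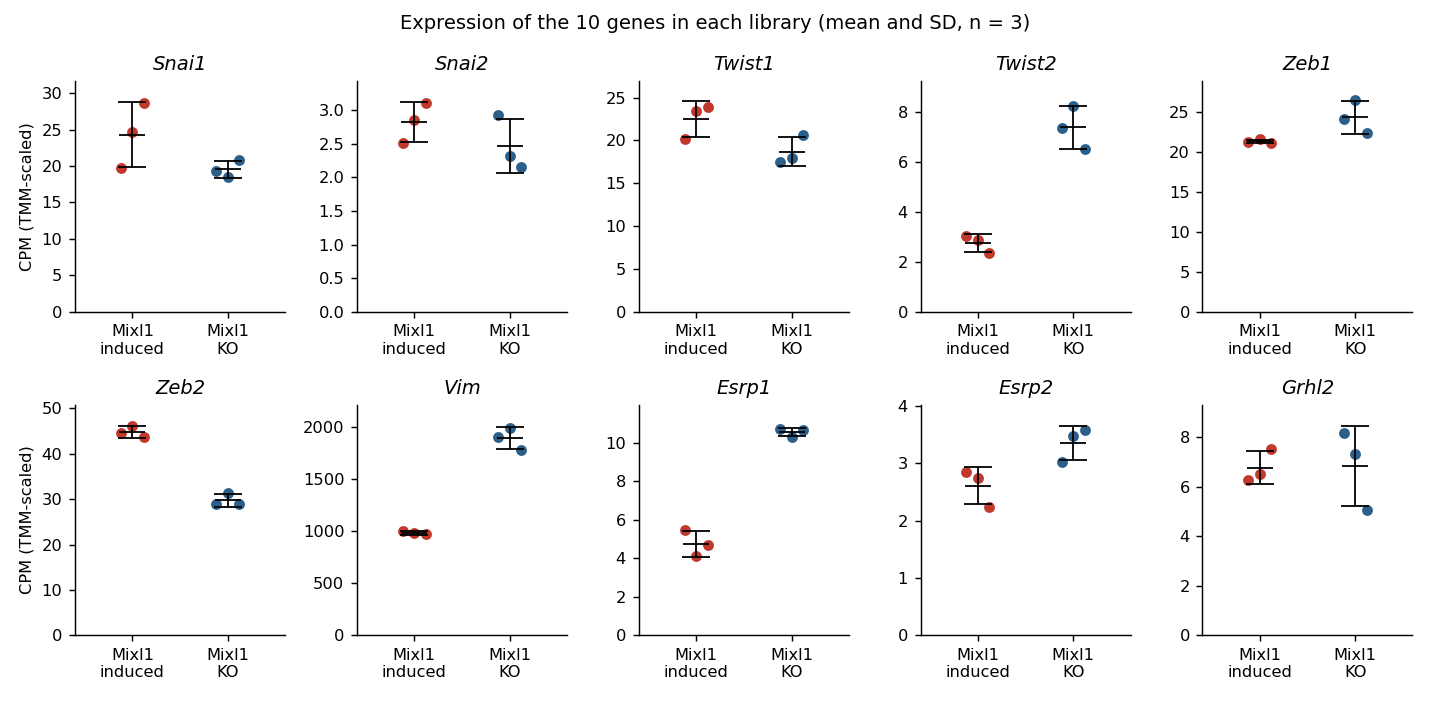
Expression in CPM (reads relative to the TMM-scaled library size, linear axis from 0) of the 10 genes in each of 3 Mixl1 induced (red) and 3 Mixl1 KO (blue) libraries; points are libraries, black bars the mean and SD. The groups are apart for Twist2, Zeb1, Zeb2, Vim, Esrp1 and Esrp2 and overlap for Snai1, Snai2, Twist1 and Grhl2.

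Snai1 and Snai2 encode the zinc-finger repressors SNAIL and SLUG. Snai1 (ENSMUSG00000042821.7) lies on the plus strand at chr2:167538195-167542814 of mm10. Snai1 had 19.7, 24.7 and 28.6 CPM in Mixl1 induced libraries, against 19.3, 18.5 and 20.8 CPM in Mixl1 KO libraries. The lowest induced library lies within the KO range and the other two lie above it. This gave a log2 fold change of 0.31 (SE 0.11, adjusted p = 0.0217, edgeR). This call was lost without induced replicate 2 (adjusted p = 0.0585), induced replicate 3 (0.163), KO replicate 1 (0.0812) or KO replicate 2 (0.0735); without induced replicate 3 the log2 fold change was 0.17. Snai2 (ENSMUSG00000022676.7, plus strand, chr16:14705852-14709385) was low in every library. It had 2.51, 2.86 and 3.11 CPM in Mixl1 induced libraries and 2.93, 2.31 and 2.16 CPM in Mixl1 KO libraries, which overlap. Its log2 fold change was 0.19 with a 95% interval from -0.22 to 0.59 (adjusted p = 0.427, edgeR). Per kb of exon, Snai1 stood about 10 times above Snai2 in both groups, with a ratio of 10.6 in Mixl1 induced and 9.95 in Mixl1 KO libraries.

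The Snai1 promoter is shown because it holds the letters that Snail and Zeb zinc fingers bind. The sequence is the 250 bases before the RefSeq start (GRCm38.p6, chr2:167537945-167538194, plus strand), and capitals mark CACCTG.
Snai1 promoter: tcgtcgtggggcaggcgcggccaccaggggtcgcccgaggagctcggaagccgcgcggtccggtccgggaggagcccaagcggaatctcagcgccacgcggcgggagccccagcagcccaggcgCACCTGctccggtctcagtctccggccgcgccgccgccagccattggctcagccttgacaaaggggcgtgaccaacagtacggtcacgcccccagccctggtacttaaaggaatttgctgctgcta
CACCTG was searched on both strands, so CAGGTG counted as well, and every match is also a CANNTG E-box. Of the 10 genes, 5 had a promoter in the RefSeq table. For each gene only the start nearest the GENCODE start was searched, and Zeb2 has 4 starts. Among the promoters searched, that of Snai1 was the only one with a match, 126 bases before its start. In the same window, 17.2% of 32851 promoters held CACCTG on either strand and 66.2% held a CANNTG. The letters say nothing on whether a factor was bound in these cells.

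Twist1 and Twist2 encode closely related basic helix-loop-helix factors of mesoderm and mesenchyme. Twist1 (ENSMUSG00000035799.6, plus strand, chr12:33957671-33959829) had 20.1, 23.5 and 23.9 CPM in Mixl1 induced libraries and 17.5, 17.9 and 20.6 CPM in Mixl1 KO libraries. The lowest induced library was below the highest KO library. Twist1 had a log2 fold change of 0.26 (SE 0.089, adjusted p = 0.0132, edgeR), a call lost without induced replicate 2 (adjusted p = 0.0570), induced replicate 3 (0.0785) or KO replicate 1 (0.0719). Twist2 (ENSMUSG00000007805.4, plus strand, chr1:91801461-91848028) had the largest change of the 10 genes. It had 3.04, 2.86 and 2.35 CPM in Mixl1 induced libraries, against 7.37, 8.27 and 6.53 CPM in Mixl1 KO libraries. All induced libraries were far below all KO libraries. The log2 fold change was -1.42 (SE 0.16, adjusted p = 7.30e-08, edgeR), so that Twist2 was 2.67-fold lower in the Mixl1 induced group. Twist2 is also expressed by embryonic fibroblasts. Their marker sum was lower, with 4 of 11 tested markers higher and 5 lower, and their part in this result was not tested. The Twist2 promoter is shown as that of the gene with the largest change (RefSeq, GRCm38.p6, chr1:91801211-91801460, plus strand). It holds no CACCTG on either strand and no other CANNTG, so it has no capitals.
Twist2 promoter: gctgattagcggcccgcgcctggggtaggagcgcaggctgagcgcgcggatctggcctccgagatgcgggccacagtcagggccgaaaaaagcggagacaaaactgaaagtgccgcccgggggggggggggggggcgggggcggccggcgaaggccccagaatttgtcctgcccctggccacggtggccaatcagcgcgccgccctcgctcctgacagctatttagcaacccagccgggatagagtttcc

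The strand of the reads bears on Twist2. An antisense gene, Gm29100, overlaps its exons on the opposite strand, with 7, 1 and 1 reads in Mixl1 induced libraries and 11, 4 and 7 in Mixl1 KO libraries. Counted on its own strand, Twist2 had 63, 50 and 43 reads in Mixl1 induced libraries and 151, 150 and 124 in Mixl1 KO libraries. With strand ignored, reads that fit both genes are dropped as ambiguous, and 16, 13 and 14 reads were left in Mixl1 induced libraries and 47, 53 and 44 in Mixl1 KO libraries. That is 27.6% of the stranded reads in the Mixl1 induced group and 33.9% in the Mixl1 KO group. The authors' deposited table gives Twist2 a log2 fold change of -1.71 (SE 0.35), and the edgeR fit on unstranded counts gave -1.70.

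**Figure D2:**
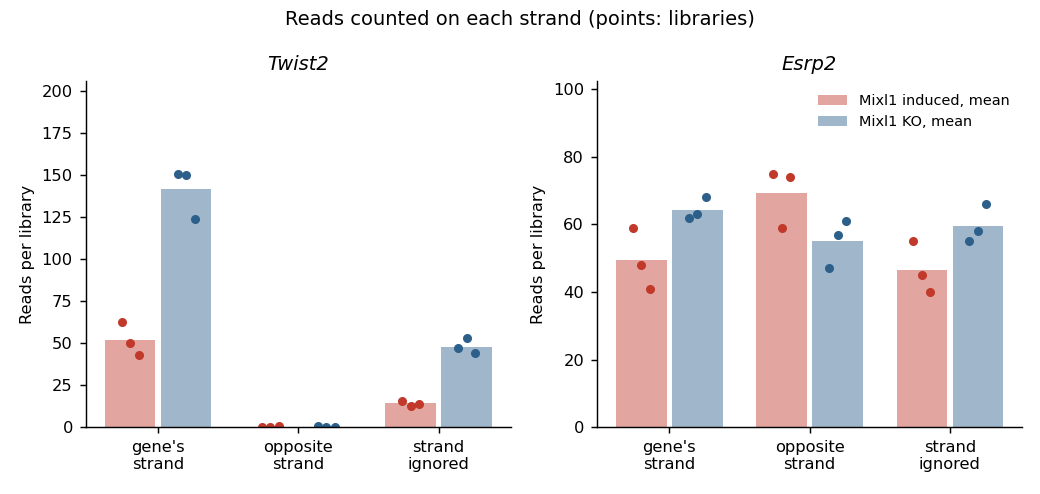
Reads per library (linear axis from 0) counted on the gene's own strand, on the opposite strand and with strand ignored, for Twist2 and Esrp2; bars are means of 3 Mixl1 induced (red) or 3 Mixl1 KO (blue) libraries and points are libraries. Twist2 keeps 13 to 16 reads in induced and 44 to 53 in KO libraries when strand is ignored, and Esrp2 has about as many reads on the opposite strand as on its own.

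Zeb1 and Zeb2 encode large zinc-finger homeodomain repressors of E-cadherin. Zeb2 (ENSMUSG00000026872.18, minus strand, chr2:44983632-45117395) had 44.5, 46.2 and 43.7 CPM in Mixl1 induced libraries, against 28.9, 31.3 and 29.1 CPM in Mixl1 KO libraries. Every induced library was above every KO library, and the spread within each group was small. For Zeb2 the log2 fold change was 0.59 (SE 0.063, adjusted p = 4.05e-08, edgeR), a 1.51-fold rise that passed under each of 15 alternative settings. Macrophages express Zeb2 as well, and their marker sum was lower in the Mixl1 induced libraries; their part in this result was not tested. Zeb1 (ENSMUSG00000024238.15, plus strand, chr18:5591860-5775467) had 21.3, 21.6 and 21.1 CPM in Mixl1 induced libraries and 24.2, 26.5 and 22.4 CPM in Mixl1 KO libraries. The groups did not overlap, although the lowest KO library was close to the induced libraries. The log2 fold change was -0.19 (SE 0.079, adjusted p = 0.0410, edgeR). The call was lost without induced replicate 1 (adjusted p = 0.0874), 2 (0.0833) or 3 (0.0818), without KO replicate 1 (0.0569) or 2 (0.215), with no filter on low counts (0.0574) and with DESeq2 (0.133). The median log2 fold change of the 415 other tested genes on chromosome 18 was -0.16, so Zeb1 differed from its chromosome by -0.03; the part of the chromosome in this result was not tested.

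The level of Zeb1 relative to Zeb2 differed between the groups. Per kb of exon, Zeb2 was at 2.25 ± 0.062 CPM and Zeb1 at 2.08 ± 0.023 CPM in Mixl1 induced libraries, and Zeb2 at 1.49 ± 0.068 CPM and Zeb1 at 2.37 ± 0.20 CPM in Mixl1 KO libraries (SD, n = 3 each). The log2 ratio of Zeb1 to Zeb2 was -0.10, -0.14 and -0.09 in Mixl1 induced libraries, against 0.70, 0.72 and 0.58 in Mixl1 KO libraries. Zeb2 was thus the higher in all 3 induced libraries and Zeb1 in all 3 KO libraries. The difference of -0.78 gave p = 0.1 in a two-sided exact permutation test, the smallest p that 3 against 3 allows, and an adjusted p of 0.133 over 4 pairs. With the length of the longest protein-coding transcript in place of all annotated exons, an alternative chosen after seeing the data, the mean log2 ratios were -0.42 and 0.36, in the same order.

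Both Zeb transcripts are known targets of the miR-200 family, epithelial microRNAs that Zeb proteins repress in turn. The mature sequences are shown with their seeds (bases 2 to 8) in capitals, because they fall into 2 seed groups that a single base separates (RefSeq, GRCm38.p6).
miR-200b-3p: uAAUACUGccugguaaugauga
miR-200c-3p: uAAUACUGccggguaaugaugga
miR-429-3p: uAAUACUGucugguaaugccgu
miR-200a-3p: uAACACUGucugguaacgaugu
miR-141-3p: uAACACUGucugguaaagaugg
The first 3 share the seed AAUACUG and pair with CAGTATT in a transcript, and the last 2 share AACACUG and pair with CAGTGTT. In the longest annotated 3′ UTR of each gene, Zeb2 held 5 matches to CAGTATT and 4 to CAGTGTT in 4941 bases, and Zeb1 likewise held 5 and 4 in 2401 bases. Only 65 of 21020 protein-coding genes (0.309%) held 5 or more matches of either kind. The median 3′ UTR length over these 21020 genes was 961 bases, and no share was taken among genes of like length. Snai2 held 2, Snai1 and Grhl2 held 1 each, and Twist1, Twist2, Vim, Esrp1 and Esrp2 held none. The window for CAGTATT that lies first in the Zeb2 3′ UTR and the window for CAGTGTT that lies first there are shown with the matches in capitals (minus strand of mm10, chr2:44988173-44988194 and chr2:44988357-44988378).
Zeb2 site for miR-200b, miR-200c and miR-429: gcactaccatacatCAGTATTt
Zeb2 site for miR-200a and miR-141: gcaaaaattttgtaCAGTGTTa
The 5 precursor genes had 0 reads in all libraries. The libraries were made from poly(A) RNA, which does not measure mature microRNAs.

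Vim encodes vimentin and lies on the plus strand at chr2:13573927-13582826 (ENSMUSG00000026728.9). It was the most abundant of the 10 transcripts, above 98.8% of tested genes per kb of exon in the Mixl1 induced group and 99.5% in the Mixl1 KO group. Vim had 1003, 983 and 970 CPM in Mixl1 induced libraries, against 1903, 1994 and 1784 CPM in Mixl1 KO libraries. The induced libraries agreed within a narrow range and were all far below the KO libraries. The fall of Vim was -0.94 on the log2 scale (SE 0.048, adjusted p = 1.24e-13, edgeR). Fibroblasts and macrophages are rich in vimentin, and the summed markers of both were lower in the Mixl1 induced libraries. Of 11 tested fibroblast markers, 4 were higher and 5 lower. The part of both cell types in this result was not tested. The Vim promoter is shown as that of the most abundant gene (RefSeq, GRCm38.p6, chr2:13574061-13574310, plus strand). It holds neither CACCTG nor another CANNTG in these 250 bases, and its RefSeq start lies 384 bases inside the GENCODE gene.
Vim promoter: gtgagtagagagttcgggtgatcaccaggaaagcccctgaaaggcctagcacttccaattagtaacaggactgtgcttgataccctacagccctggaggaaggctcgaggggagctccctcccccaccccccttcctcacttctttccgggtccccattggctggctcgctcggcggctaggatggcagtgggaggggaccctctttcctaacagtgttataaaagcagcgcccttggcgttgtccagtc

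Esrp1 and Esrp2 encode the epithelial splicing regulatory proteins. Esrp1 (ENSMUSG00000040728.15, minus strand, chr4:11331933-11386783) had 5.45, 4.11 and 4.70 CPM in Mixl1 induced libraries, against 10.7, 10.3 and 10.6 CPM in Mixl1 KO libraries. No induced library came near the KO range. The log2 fold change was -1.14 (SE 0.13, adjusted p = 7.12e-08, edgeR), and Esrp1 was 2.20-fold lower in the Mixl1 induced group. Esrp2 (ENSMUSG00000084128.10, minus strand, chr8:106130319-106136974) had 2.84, 2.74 and 2.24 CPM in Mixl1 induced libraries and 3.02, 3.47 and 3.58 CPM in Mixl1 KO libraries. All induced libraries were below all KO libraries, yet with 41 to 68 reads per library the difference did not pass. Its log2 fold change was -0.36 with a 95% interval from -0.74 to 0.02 (adjusted p = 0.0931, edgeR). Per kb of exon, the Esrp1 to Esrp2 ratio was 1.25 in the Mixl1 induced group and 2.17 in the Mixl1 KO group, a log2 difference of -0.79 with p = 0.1 (exact permutation test, the smallest possible, adjusted p = 0.133). The mean log2 ratios behind these values were 0.32 and 1.11. By the longest protein-coding transcript, an alternative chosen after seeing the data, they were 0.74 and 1.53, in the same order. Esrp2 shares exon sequence on the opposite strand with Nfatc3, which had 2136, 1688 and 1821 reads in Mixl1 induced libraries and 1737, 1466 and 1617 in Mixl1 KO libraries.

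Grhl2 encodes a grainyhead factor that keeps epithelial junction genes active (ENSMUSG00000022286.16, plus strand, chr15:37233036-37363569). It had 6.27, 6.51 and 7.54 CPM in Mixl1 induced libraries and 8.15, 7.33 and 5.05 CPM in Mixl1 KO libraries. The KO libraries were more spread and enclosed the induced ones. The log2 fold change was -0.02 with a 95% interval from -0.34 to 0.30 (adjusted p = 0.92, edgeR). The median of the 595 other tested genes on chromosome 15 was -0.33, the lowest of any chromosome, so Grhl2 stood 0.31 above its chromosome on the log2 scale. The other members lay on chromosomes with medians between -0.16 and 0.07.

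**Figure D3:**
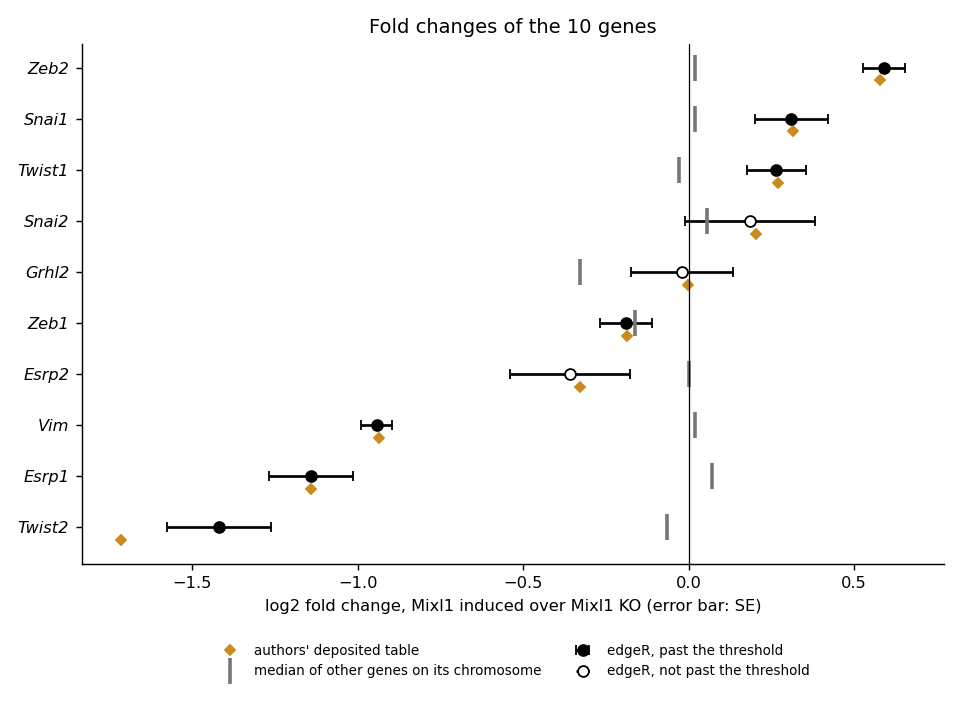
Log2 fold change, Mixl1 induced over Mixl1 KO, of the 10 genes (circles, with SE; filled where the adjusted p was below 0.05), the authors' deposited value (diamonds) and the median of the other tested genes on the same chromosome (grey ticks). Zeb2 is highest at 0.59 and Twist2 lowest at -1.42, the deposited value departs most for Twist2, and Zeb1 sits close to the median of its chromosome.

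Ranked by level per kb of exon, Vim stood first in both groups, at 208 ± 3.54 CPM in Mixl1 induced and 399 ± 22.2 CPM in Mixl1 KO libraries (SD, n = 3 each). Snai1 and Twist1 came next, at 15.0 ± 2.76 and 13.8 ± 1.27 CPM in Mixl1 induced libraries and at 12.1 ± 0.712 and 11.5 ± 1.04 CPM in Mixl1 KO libraries. Their ranges overlapped in each group, so their order is not resolved. The order of the other 7 genes depends on the length used. By all annotated exons they were between 0.60 and 2.25 CPM per kb in the Mixl1 induced group, in the order Zeb2, Zeb1, Snai2, Twist2, Grhl2, Esrp1 and Esrp2. In the Mixl1 KO group they were between 0.77 and 2.37 CPM per kb, in the order Zeb1, Twist2, Esrp1, Zeb2, Snai2, Grhl2 and Esrp2. Neighbours whose libraries overlapped were Twist2, Grhl2, Esrp1 and Esrp2 in the Mixl1 induced group, and Zeb1 with Twist2, Zeb2 with Snai2 and Grhl2 with Esrp2 in the Mixl1 KO group. By the longest protein-coding transcript they were between 0.74 and 4.91 CPM per kb in the Mixl1 induced group and between 0.95 and 4.20 CPM per kb in the Mixl1 KO group (an alternative chosen after seeing the data), and Vim was at 449 CPM per kb in the Mixl1 induced and 863 in the Mixl1 KO group. In the Mixl1 induced group Grhl2 (1.37 ± 0.14) and Esrp1 (1.23 ± 0.17) were then above Twist2 (1.09 ± 0.14). In the Mixl1 KO group Zeb2 (3.26 ± 0.15) was then above Twist2 (2.93 ± 0.34) and Esrp1 (2.73 ± 0.053), and Grhl2 (1.38 ± 0.32) above Snai2 (1.22 ± 0.20). By either length Zeb2 led these 7 genes in the Mixl1 induced group, Zeb1 led them in the Mixl1 KO group, and Esrp2 was lowest in both. These levels rest on an annotation other than the release used for the counts.

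**Figure D4:**
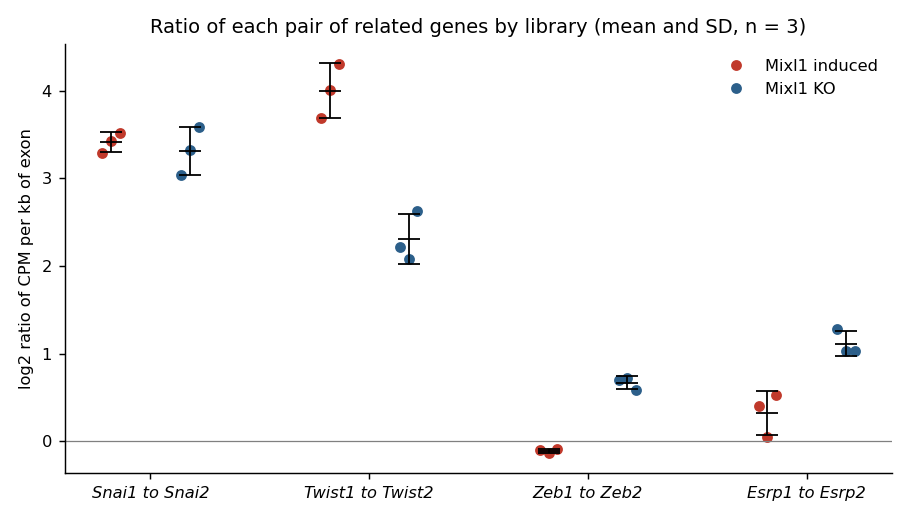
Log2 ratio of length-scaled CPM for 4 pairs of related genes in each Mixl1 induced (red) and Mixl1 KO (blue) library; points are libraries, black bars the mean and SD, and the line at 0 marks equal levels. The groups are apart for Twist1 to Twist2, Zeb1 to Zeb2 and Esrp1 to Esrp2, and overlap for Snai1 to Snai2.

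For the Twist pair, Twist1 was 16.0 times Twist2 per kb of exon in the Mixl1 induced group and 4.94 times in the Mixl1 KO group. The log2 difference of 1.70 again gave the smallest p of the exact permutation test, 0.1 (adjusted p = 0.133). For the Snail pair the log2 ratio differed by 0.10, within the spread between libraries (exact permutation p = 0.7).

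Counts in the lists of related genes that follow stand against 31% of all tested genes higher and 31.6% lower. Other transcription factor genes linked to the transition went both ways. Of 24 tested, 12 rose and 7 fell, with a median log2 fold change of 0.14 against 0.0038 over all tested genes. Gsc, an organizer homeobox gene, was at 25.2 ± 0.741 CPM in the Mixl1 induced group and 1.16 ± 0.278 CPM in the Mixl1 KO group (SD, n = 3 each), a log2 fold change of 4.43. Mesp1, a factor gene of nascent mesoderm, rose by 3.81 on the log2 scale. T, the brachyury gene of the primitive streak, was at 205 CPM in the Mixl1 induced group and 1807 CPM in the Mixl1 KO group, and Ets1 had a log2 fold change of -1.48. Among 17 genes listed as partners and regulators of Snail and Zeb proteins, 4 rose and 6 fell (median -0.07). Usp27x, which encodes a deubiquitinase that stabilises SNAIL in human cells, rose by 1.27, and Fbxl14, which encodes a ubiquitin ligase subunit that marks SNAIL for degradation, had a log2 fold change of -0.71. The corepressor gene Ctbp2 had -0.50. Pkd1, counted among the genes that rose, had 0.37. It encodes polycystin 1, which is not an established regulator of these proteins. The highest adjusted p among these genes was 6.52e-06 (edgeR).

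Genes of the grainyhead and Ovo families beside Grhl2 were lower or did not pass. This list includes Tfcp2, Tfcp2l1 and Ubp1, which are not particular to epithelia. Of 6 tested grainyhead and Ovo family genes, 3 fell and none rose, with a median of -0.64; without induced replicate 1, or with unstranded counts, 1 of them passed as higher. Grhl3, a grainyhead gene of surface ectoderm, was at 7.94 ± 1.05 CPM in the Mixl1 induced group and 26.5 ± 1.19 CPM in the Mixl1 KO group (log2 fold change -1.75, adjusted p = 8.10e-13, edgeR). Ovol2, which encodes a zinc-finger repressor of Zeb genes, was at 0.645 ± 0.220 CPM in the Mixl1 induced group and 4.77 ± 1.63 CPM in the Mixl1 KO group (log2 fold change -2.89, adjusted p = 6.75e-08, edgeR). Tfcp2 had a log2 fold change of -1.03.

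Epithelial genes of adhesion and polarity divided between the directions, with 15 of 32 tested higher and 12 lower and a median of 0.10. The keratin genes Krt8 and Krt18 were higher, Krt8 with 442 ± 15.5 CPM in the Mixl1 induced group and 221 ± 4.74 CPM in the Mixl1 KO group, and Krt18 with a log2 fold change of 1.21. Desmosome genes went both ways. Pkp1 and Dsg2 were lower, Pkp1 with 0.137 CPM in the Mixl1 induced group and 6.08 CPM in the Mixl1 KO group, and Dsg2 with a log2 fold change of -1.34. Of further desmosome genes, named after their values were seen, Dsp had a log2 fold change of -0.49 (adjusted p = 1.87e-08, edgeR) and Pkp3 of 2.24 (adjusted p = 1.37e-06, edgeR), while Pkp2 (0.11, adjusted p = 0.112, edgeR) and Jup (-0.02, adjusted p = 0.734, edgeR) did not pass. Cdh1, the E-cadherin gene that Snail and Zeb proteins repress, was at 77.1 ± 8.07 CPM in the Mixl1 induced group and 134 ± 10.4 CPM in the Mixl1 KO group (log2 fold change -0.80, adjusted p = 9.42e-08, edgeR), and was also named after its values were seen. Mesenchymal genes of adhesion and matrix divided likewise, with 10 of 20 higher, 7 lower and a median of 0.28. The fibronectin gene Fn1 (log2 fold change 1.25) and Ccn2 (2.15), which encodes a matricellular growth factor, were higher. Acta2, the smooth muscle actin gene, was at 43.3 ± 2.90 CPM in the Mixl1 induced group and 246 ± 9.21 CPM in the Mixl1 KO group, and Zyx, which encodes the focal adhesion protein zyxin, had a log2 fold change of -0.98. Acta2 and Zyx are strong in fibroblasts, whose summed markers were also lower, although 4 of 11 tested markers were higher and 5 lower. The part of these cells was not tested. Genes of both kinds thus passed the test in both directions. Genes named above without their own adjusted p had 1.92e-11 or less (edgeR).

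Vim was compared with a list of other intermediate filament genes and genes of their partners. The list includes the nuclear lamin genes Lmna and Lmnb1 and the partner gene Plec. Krt8 and Krt18, both higher, were counted among the epithelial genes instead. Of 12 tested, 6 rose and 2 fell, with a median of 0.48, so Vim fell whereas most genes past the threshold rose. Nes, the nestin gene, moved with Vim, at 168 ± 13.1 CPM in the Mixl1 induced group and 318 ± 11.2 CPM in the Mixl1 KO group, and the desmin gene Des had a log2 fold change of -0.83. The neurofilament genes Nefl (0.58) and Nefm (0.97) and the synemin gene Synm (0.83) rose (adjusted p of 8.94e-05 or less for each, edgeR).

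Transcripts whose exons ESRP proteins are known to regulate were found in both directions. Among the 18 tested, 7 rose and 6 fell, with a median of 0.04. Osbpl3 rose by 0.86 on the log2 scale, and Magi1 and Ralgps2 had log2 fold changes of -0.93 and -1.01. Of 20 genes of other splicing factors listed as linked to the transition, 6 rose and 7 fell, with a median of 0.04. These counts are close to the 31% and 31.6% of all tested genes, so the list did not stand out by them. Rbm24, a splicing factor gene of heart and muscle, was at 7.79 ± 1.06 CPM in the Mixl1 induced group and 2.21 ± 0.235 CPM in the Mixl1 KO group, and Nova1 rose by 0.64. Rbfox1 and Khdrbs3 had log2 fold changes of -0.95 and -0.63 (adjusted p of 2.62e-06 or less for each named gene, edgeR).

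TGF-beta is the best known inducer of Snail and Zeb genes. Of 11 tested genes of its ligands, receptors, signal carriers and targets, 7 fell and 2 rose, against 31.6% and 31% of all tested genes, with a median of -0.31. Tgfb1 was at 75.6 ± 4.33 CPM in the Mixl1 induced group and 108 ± 1.16 CPM in the Mixl1 KO group, Tgfb2 had a log2 fold change of -0.46, and the effector gene Smad3 and the co-repressor gene Skil had -0.41 and -0.26. The inhibitor gene Smad7 (0.41, adjusted p = 0.000191, edgeR) and the receptor gene Tgfbr1 (0.13, adjusted p = 0.0444, edgeR) rose. In 8 of 15 alternatives, among them leaving out induced replicate 1, induced replicate 2 or KO replicate 2, 1 gene of the list rose.

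**Figure D5:**
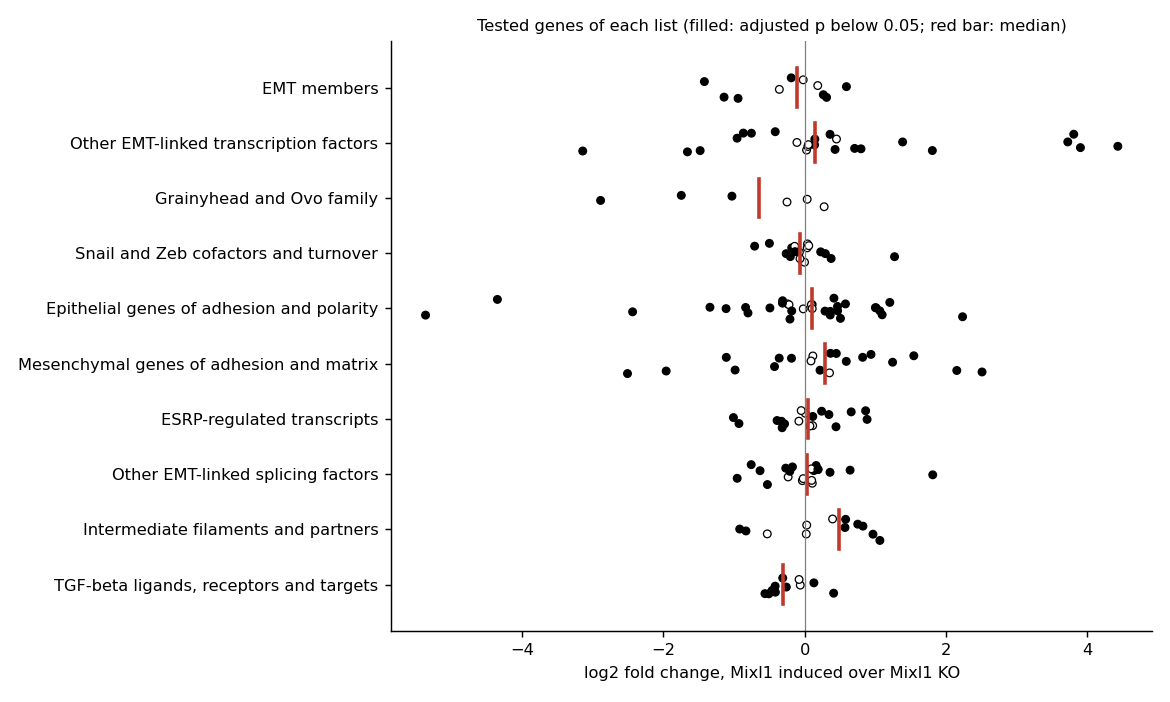
Log2 fold change, Mixl1 induced over Mixl1 KO, of every tested gene of the 10 genes and of 9 lists around them; filled points had an adjusted p below 0.05 and red bars mark medians. Points lie on both sides of 0 in every list, and the medians run from -0.64 for the grainyhead and Ovo family to 0.48 for intermediate filaments and partners.

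Neural crest cells use Snai2, Twist1 and Zeb2 as well, and 7 of 10 neural crest markers were higher and 2 lower in the Mixl1 induced libraries. Their summed level was 259 to 295 CPM in Mixl1 induced and 108 to 133 CPM in Mixl1 KO libraries, and none was at 0. Foxd3 (log2 fold change 4.32), Tfap2b (4.25), Ednrb (3.24) and Msx2 (0.97) were higher, whereas Sox10 (-0.40), a defining marker of migrating crest, was lower. The part of such cells in the Zeb2 and Twist1 results was not tested. Of 4 tested endothelial markers, Kdr (3.78), Tek (3.27) and Pecam1 (1.18) were higher and Cdh5 (-0.95) was lower, and 5 further markers of endothelium and blood had too few reads to be tested, among them Hba-x with 0 reads.

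Profiles across the 6 libraries were compared with those of all tested protein-coding genes, by the Euclidean distance between log2 CPM values centred on each gene's mean. Ankrd27 (distance 0.021) and Pms2 (0.074) were closest to Zeb2, mt-Nd5 (0.053) and Ndrg2 (0.062) to Vim, Dgkh (0.069) and Cspg4 (0.11) to Twist2, and Syce2 and Bcl3 (both 0.14) to Esrp1. The 6 libraries form 2 groups, so these distances are a description only.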

How the data were processed

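RNA-seq libraries of 3 Mixl1 induced and 3 Mixl1 KO samples were grouped and numbered by their titles. The authors deposited raw counts of reads per gene for each library (unstranded and for each strand), from a stranded mRNA kit, per the labels' protocols, and with bcl2fastq and STAR on mm10, per the submitters' processing notes. Tool versions were not given in the sources used here, nor was the annotation release. Column 4, which held 96.2% to 96.3% of stranded gene reads, was used. Reads naming no gene (15.1% to 17.6%) were left out. The authors also deposited a DESeq2 table, per the file headers, which holds for each gene the mean normalised count as a signal, the log2 fold change and its error, the Wald score, raw and adjusted p-values and a −log10 of the adjusted p; it is quoted only where named.

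Identifiers were matched to GENCODE M21 (GRCm38) without their version, 55230 of 55471. edgeR 4.0.16 in R 4.3.3 was used with filterByExpr, TMM scaling and a robust quasi-likelihood fit with group as its only term, two-sided, with Benjamini-Hochberg adjustment over 15091 genes at 0.05. Standard errors were taken as the absolute log2 fold change over the square root of F, with a median of 0.084. Intervals are at 95%. The script was tested on simulated data. The precision of low genes is set by their reads.

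The 10 genes, the lists and the tests were chosen with earlier results of these data known. Named were the 10 genes, Mixl1, up to 4 genes of each list with the smallest p past the threshold, up to 2 in the minority direction where more than 2 in 3 went the other way, and 2 nearest profiles per gene (given for 4); some genes that this rule names are not reported here. Pou5f1 follows from the epiblast markers; Nfatc3 and Gm29100 were named after their values were seen, as overlapping genes. Alternatives were DESeq2 1.42.0 or upper-quartile scaling, other filters on low counts, counts with strand ignored, a term for replicate number, each library left out, DESeq2, limma-voom (limma 3.58.1) and an adjusted p of 0.01.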

Additional observations from a re-analysis of the deposited data

Results flagged for a closer look

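Esrp2 drew attention through reads on the strand that the main comparison did not use. Of the stranded reads assigned to Esrp2, 58.4% lay on the opposite strand in Mixl1 induced libraries and 46.1% in Mixl1 KO libraries, with 75, 59 and 74 such reads in the induced and 47, 57 and 61 in the KO libraries. Nfatc3 overlaps Esrp2 exons on that strand. The other 9 genes had at most 3.84% of their reads there.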

How the results depend on the processing

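Twist2, Esrp1, Vim and Zeb2 kept their direction and passed, and Snai2 and Esrp2 kept theirs and did not pass, under each of 15 alternatives. Of the 10 genes, 3 were higher, and leaving out 1 library gave 1 to 3; at an adjusted p of 0.01, 1 was higher. Grhl2, which did not pass under any, changed sign in some: its log2 fold change ran from -0.20 to 0.12 with 1 library left out and was 0.0010 with limma-voom. The log2 difference of the Snai1 to Snai2 ratio ran from -0.040 (without KO replicate 1) to 0.23 with 1 library left out. The cause of these moves was not tested. The replicate number as a term (replicate block) gave 4789 higher and 4858 lower genes, against 4684 and 4766, and changed no call among the 10. Same-numbered libraries correlated in their deviations from the group means by 0.0205, 0.131 and 0.108, so the numbers were not taken to pair them, and of the induced libraries only replicate 2 correlated best with its own number. Library depth limits Snai2, Esrp2 and Twist2, with 41 to 151 reads per library. It also limits Grhl2, with 96 to 167 reads, and Esrp1, with 72 to 219 reads.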
